A study of Homo sapiens with 4 samples.

Results

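MiR-221 and miR-222 are a pair of microRNAs made from neighbouring genes on the X chromosome, and their levels were followed over 4 doses of androgen in LNCaP cells, a cell line from a human prostate adenocarcinoma. The 2 human probes of that name were taken from the 455 human miRNA probes on the array, together with the mouse miR-221 probe and the 3 control probes that carry 2 mismatched bases. The cells were kept in medium with charcoal-stripped serum, which lacks androgen, for 24 hours before treatment. The 4 groups received 0 nM (untreated), 0.1 nM, 1 nM or 10 nM of R1881, a synthetic agonist of the androgen receptor. Cy3-labelled total RNA was read on a custom 1-colour array, with 1 array per dose and therefore no replicate of any group. The treatment time is not given in the sources used here. A mean signal is the linear intensity of a probe, and total RNA from a culture cannot tell fewer expressing cells from less miRNA per cell.

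A miRNA binds mRNAs mainly through its seed, bases 2 to 8 from the 5′ end, and lowers their translation and stability. MiR-221 and miR-222 share a seed and are known for targeting the cyclin-dependent kinase inhibitors p27 (CDKN1B) and p57 (CDKN1C), the receptor tyrosine kinase KIT and oestrogen receptor alpha. They are abundant in endothelium and in several carcinomas. Among prostate cancer lines they are described as high in the androgen-independent PC-3 line and low in LNCaP cells.

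The mature sequences, from RefSeq (GRCh38.p14), are shown with the seed, which the pair has in common, in capitals. The bases at which the members differ lie in the remainder. Whether the probe of each member also binds the other was not tested.
miR-221: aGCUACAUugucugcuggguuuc
miR-222: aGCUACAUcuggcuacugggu
The array's names give no arm, and both were read as the arm that RefSeq calls 3p. MiR-221 has 23 bases at chrX:45746180-45746202 and miR-222 has 21 bases at chrX:45747036-45747056, both on the minus strand. The first 8 bases are identical, and a global alignment matched 18 bases in all. Of 2370 mature human names in the table, 2 carry the seed GCUACAU, and they are these 2. The hairpins are 748 bases apart, within the span of the non-coding host gene MIR222HG, and 0 other annotated miRNA genes lie within 100000 bases of them. The probe sequences, the mouse sequence and the places of the mismatched bases were not used here.

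The human miR-221 probe gave a positive signal on every array, and its highest value was in untreated cells. Its mean signal was 704.5 untreated and 566.5, 504.75 and 484.25 on the arrays at 0.1, 1 and 10 nM. The detection threshold, which is the median of an array's mismatch probes plus 3 scaled median absolute deviations, was 519, 506, 435 and 424 in order of dose. MiR-221 was thus detected on all 4 arrays, by 186 units untreated and by 60.3, 69.9 and 60.4 units on the treated arrays. The array background also went down with dose, since the median mismatch signal was 371.5, 355, 295.75 and 280.25. Its part in the members' mean signals was taken out by subtraction, which gives the net signal used below.

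After that subtraction the treated values of miR-221 lay together, below the untreated one. Its net signal was 333 untreated and 211.5, 209 and 204 in order of dose. The 3 treated arrays lay within 7.5 units of each other, whereas the gap to the untreated array was 121.5 units at 0.1 nM, 124 at 1 nM and 129 at 10 nM. For scale, the scaled median absolute deviation among mismatch probes was 46.0 to 50.4 units per array. That is a spread between different probes on one array and not an error between cultures, which 1 array per dose cannot give. The net signals of the treated arrays therefore have no order beyond that spread. This shape depends on the scaling, since the normalised log2 levels were 8.72, 8.77, 8.28 and 7.99 from 0 to 10 nM.

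MiR-222 stood lower at the upper doses only. Its mean signal was 603.25 untreated, 589.25 at 0.1 nM, 428.75 at 1 nM and 392.75 at 10 nM, and its net signal was 231.75, 234.25, 133 and 112.5 in the same order. It was detected on the untreated and 0.1 nM arrays. On the arrays at 1 and 10 nM it lay 6.13 and 31.1 units under the threshold, so only an upper bound on its level is available there. The net signal at 0.1 nM was 1.01 times the untreated one. At 0.1 nM the net signal of miR-221 was 0.635 times the untreated one, so the members differed most at that dose. The median of that net ratio over the 40 human miRNAs detected on all 4 arrays was 0.651, 0.985 and 0.999 in order of dose. Beside those medians, miR-221 at 0.1 nM was like the array as a whole, and at 1 and 10 nM it was below it, at 0.628 and 0.613.

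**Figure D1:**
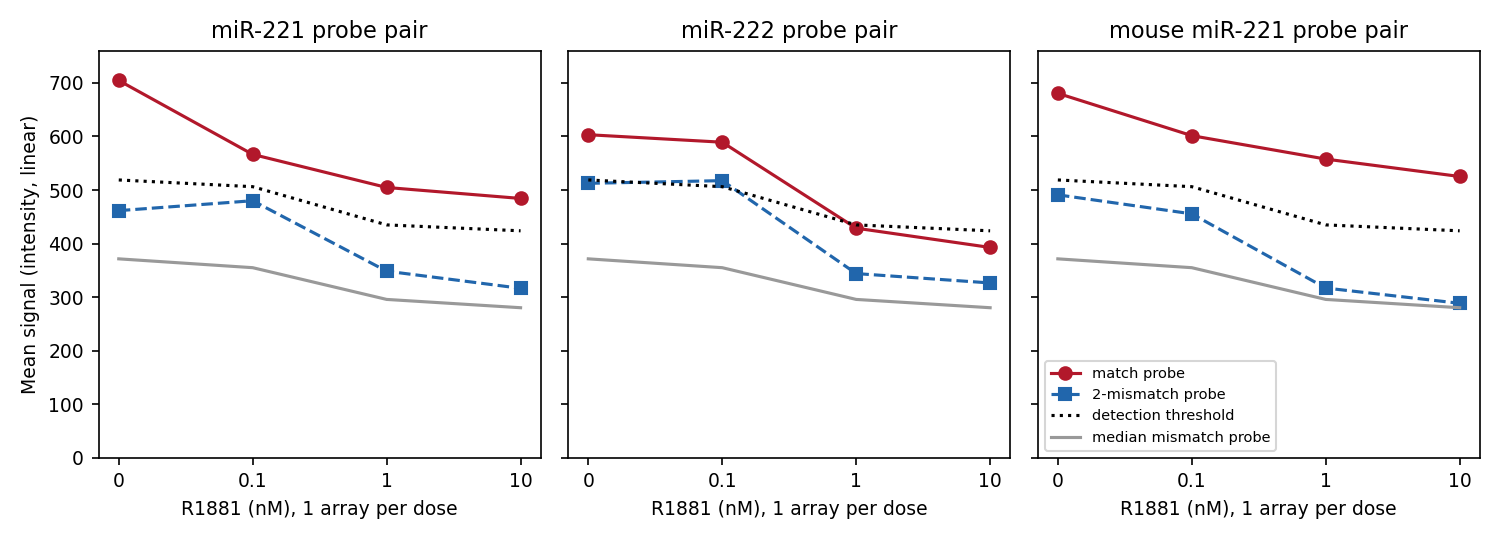
Mean signal (linear intensity) against R1881 dose in nM, 1 array per dose, for the human miR-221, human miR-222 and mouse miR-221 probes (circles) and their 2-mismatch probes (squares), with the detection threshold (dotted) and the median mismatch probe (grey). The miR-222 probe falls under the threshold at 1 and 10 nM, and its mismatch probe reaches 517.5 at 0.1 nM, above the threshold of 506.

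The mouse miR-221 probe, a second probe for a miRNA of the same name, was detected on all 4 arrays. Its mean signal was 680.5 untreated and 601.5, 557.75 and 525.25 at 0.1, 1 and 10 nM, and its net signal was 309, 246.5, 262 and 245. It was again highest in untreated cells, but by less, at 0.798, 0.848 and 0.793 times the untreated net signal. Both miR-221 probes thus gave the untreated array their highest net signal, and they differed in how far the treated arrays lay below it. This too depends on the scaling, since the normalised log2 level of the mouse probe was 8.58 untreated and 9.04 at 0.1 nM.

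The mismatch probes of the pair stood well over the median mismatch probe on the untreated and 0.1 nM arrays and close to it at 1 and 10 nM. The miR-221 mismatch probe had net signals of 90 untreated and 125, 52.75 and 36.25 at 0.1, 1 and 10 nM. The miR-222 mismatch probe had 141 untreated and 162.5, 48.25 and 46.25 on the treated arrays. The mouse miR-221 mismatch probe had 119.5 untreated and 100.5, 21.25 and 8.25. All 3 therefore stood lower at 1 and 10 nM than in untreated cells, in the same direction as the match probes.

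For miR-221 the mismatch net signal was 27.03% of the match net signal untreated, 59.1% at 0.1 nM, 25.2% at 1 nM and 17.8% at 10 nM. Over the 40 human miRNAs detected on all arrays the median of that share was 0.600%, 1.69%, 0.376% and 0.885% in the same order. At 0.1 nM 0 of the other 39 had a larger share than miR-221, and on each of the other arrays 3 had. For miR-222 the share was 60.8%, 69.4%, 36.3% and 41.1%.

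Subtracting each probe's own mismatch signal changed the picture. For the human miR-221 probe the match signal exceeded the mismatch signal by 243 untreated and by 86.5, 156.25 and 167.75 in order of dose. The untreated array was still the highest, and the 0.1 nM array was now the lowest. For miR-222 the difference was 90.75 untreated and 71.75, 84.75 and 66.25 on the treated arrays, a range of 24.5 units that is below the spread among mismatch probes. For the mouse miR-221 probe it was 189.5 untreated, 146 at 0.1 nM, 240.75 at 1 nM and 236.75 at 10 nM. By this measure the treated value at 10 nM was 0.690 times the untreated one for the human miR-221 probe and 1.25 times for the mouse probe, so the 2 probes of miR-221 disagreed in direction at 1 and 10 nM. The part of unspecific signal in the lower values of the pair was not tested beyond this subtraction.

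**Figure D2:**
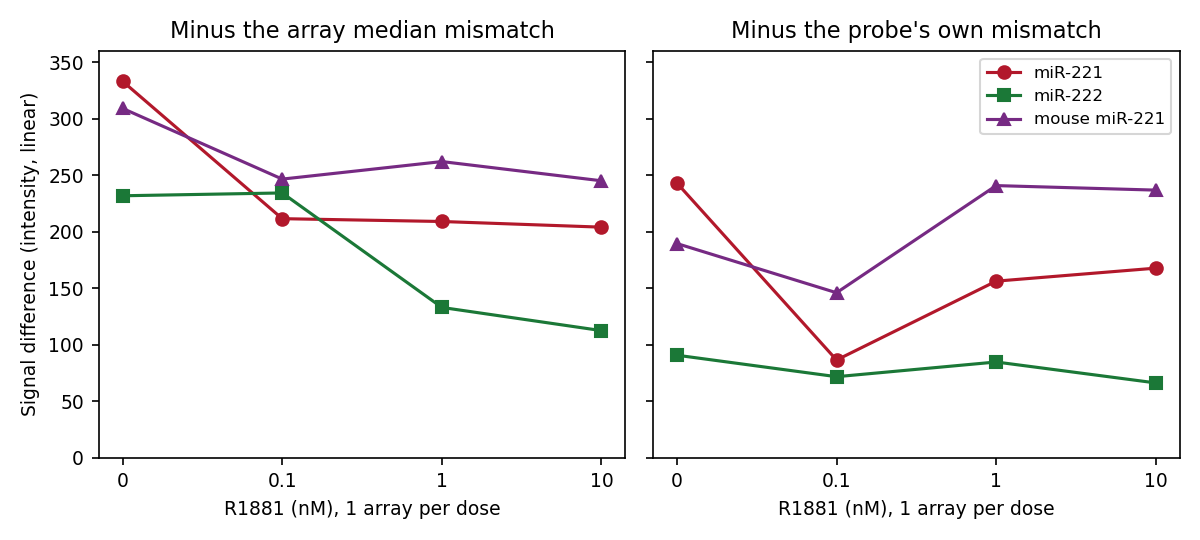
Signal of the human miR-221, human miR-222 and mouse miR-221 match probes (linear intensity) against R1881 dose in nM, 1 array per dose, after subtracting the array's median mismatch signal (left) or the probe's own mismatch signal (right). On the left the miR-221 probes are highest in untreated cells. On the right the mouse probe is higher at 1 and 10 nM, at 240.75 and 236.75, than untreated, at 189.5.

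To compare arrays, signals were background-corrected with normexp and quantile normalised, and the log2 ratio of each treated array to the untreated one was read. At 10 nM miR-221 had a normalised log2 level of 7.99, against 8.72 untreated, a log2 ratio of -0.73 or 1.65-fold lower. MiR-222 was not detected at 10 nM, where its measured level was 7.63, against 8.35 untreated (a measured ratio of -0.72, on a signal not above background). Under this processing it is reported as at least 1.48-fold lower, set against the dimmest detected miRNA of the 10 nM array after normalisation. That bound does not hold under every other setting. MiR-221 was past 1.5-fold lower, a size that the measured ratios of 8.86% of the 79 miRNAs compared at 10 nM reached, and the bound of miR-222 falls short of it. Of those 79, 3 had a lower ratio than miR-221. The mouse probe of miR-221 had 8.21 at 10 nM and 8.58 untreated, a ratio of -0.37, which is not past 1.5-fold.

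The 1.5-fold call of miR-221 at 10 nM was lost without background correction, at -0.44, and without normalisation, at -0.54. The measured ratio of miR-222 was -0.40 without background correction. The measured ratio of both stayed below 0 at 10 nM under each setting tried.

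At 1 nM neither member was past 1.5-fold under this processing, but both were under some other settings. MiR-221 had 8.28 at 1 nM and 8.72 untreated, a log2 ratio of -0.43. MiR-222, not detected at 1 nM, was at least 1.27-fold lower (a measured ratio of -0.39). That bound was computed under this processing only, and it does not hold under every other setting. Of the 66 miRNAs compared, 4.55% were lower by 1.5-fold or more, and 4 had a lower ratio than miR-221. The mouse probe stood at -0.14. Subtracting the median mismatch signal in place of normexp gave measured ratios of -0.61 for miR-221 and -0.62 for miR-222, both past 1.5-fold. The authors' value table gave -0.67 for miR-221, also past it. Without background correction the ratios of miR-221 and miR-222 were -0.28 and -0.22. With the own mismatch signal subtracted they were -0.53 and 0.0020, so miR-222 was then not lower. With median centring they were at -0.73 and -0.76, both past 1.5-fold. The median ratio of the 80 detected miRNAs then moved to -0.23 at that dose, against 0.04 under quantile normalisation.

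At 0.1 nM the normalised values no longer showed the lower net signal of miR-221. MiR-221 had 8.77 at 0.1 nM and 8.72 untreated, a log2 ratio of 0.05, beside a median of 0.04 over the 65 miRNAs compared. MiR-222 had 9.01 at 0.1 nM and 8.35 untreated, a ratio of 0.66 or 1.58-fold higher, a size in that direction that 10.8% of the 65 reached. The mouse miR-221 probe stood at 0.46. The higher value of miR-222 depends on the scaling, since its net signals were 234.25 at 0.1 nM and 231.75 untreated, and its ratio was -0.09 without normalisation and -0.71 with its own mismatch signal subtracted. It also missed 1.5-fold with median centring, at 0.55, and without background correction, at 0.44. The ratio of miR-221 at 0.1 nM was -0.57 without normalisation and -1.56 with its own mismatch signal subtracted.

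**Figure D3:**
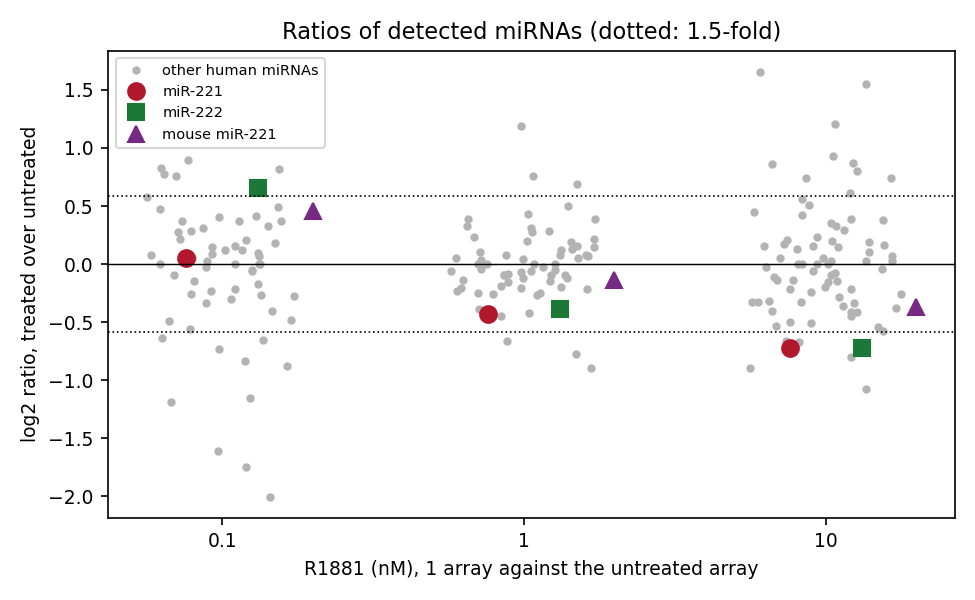
Log2 ratio of the normalised level, each treated array over the untreated array, for human miRNAs detected on either array (grey points, spread sideways for visibility) and for miR-221, miR-222 and the mouse miR-221 probe, at 0.1, 1 and 10 nM R1881. Dotted lines mark 1.5-fold. MiR-221 lies at -0.73 at 10 nM and 0.05 at 0.1 nM, and miR-222 at 0.66 at 0.1 nM; its points at 1 and 10 nM are measured values not above background.

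For miR-221, the human and the mouse probe differed by -0.41, -0.29 and -0.36 log2 (human minus mouse) in order of dose. The human probe was the lower at each dose, and all 3 differences share the untreated array. Across the 7 human miRNAs with a mouse probe of the same name, both detected on all arrays and miR-221 among them, the median absolute difference was 0.37, 0.25 and 0.32. The miR-221 pair was therefore about as far apart as such pairs were on these arrays. The human ratio at 10 nM, -0.73, was larger than that difference, and the mouse ratio, -0.37, was close to it.

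**Figure D4:**
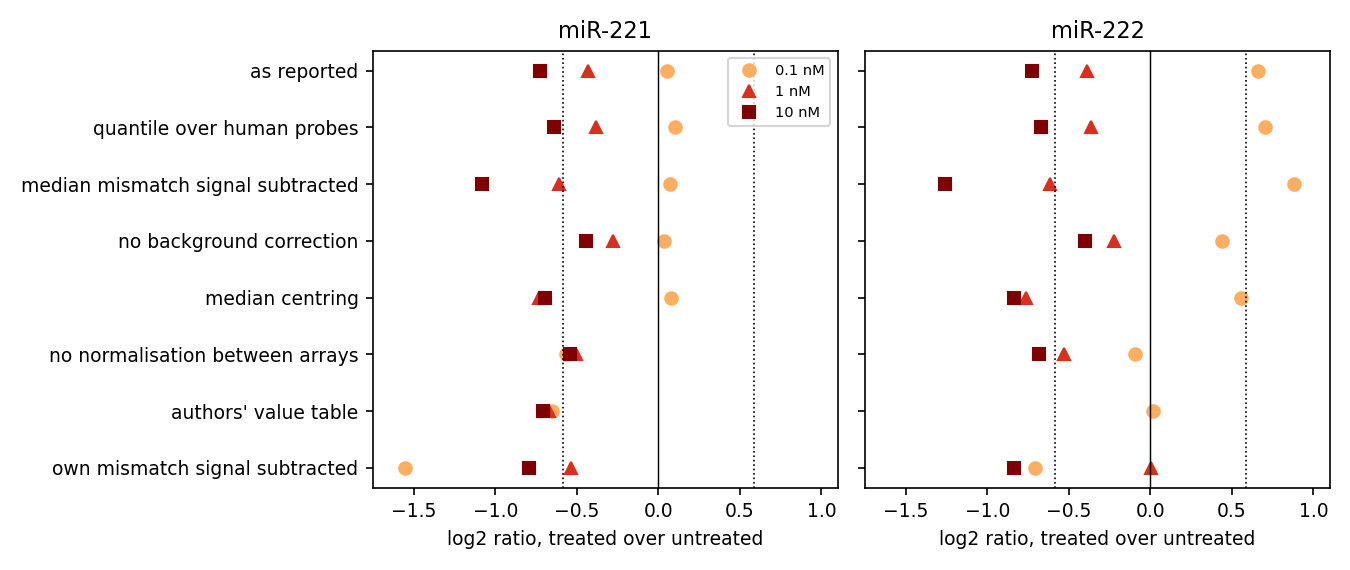
Log2 ratio of treated over untreated arrays (horizontal axis) for miR-221 (left) and miR-222 (right) under each background correction and normalisation, with circles for 0.1 nM, triangles for 1 nM and squares for 10 nM of R1881, 1 array each. Dotted lines mark 1.5-fold. The values at 10 nM, which for miR-222 are not above background, stay below 0 in each row that has one, whereas those at 0.1 nM run from -1.56 to 0.10 for miR-221 and from -0.71 to 0.88 for miR-222.

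Limma was fitted across the 80 human miRNAs detected on at least 1 array, and neither member passed it. For a straight line over the 3 dose steps, miR-221 had a slope of -0.27 ± 0.08 log2 per step (SE, limma adjusted p = 0.498) and miR-222 a slope of -0.32 ± 0.18 (SE, limma adjusted p = 0.514). The slope of miR-221 was the fourth lowest of the 80, and that of miR-222 rests on 2 arrays where its signal was not above background. Limma made 0 calls at an adjusted p of 0.05, or 0% of the 80, and 7 miRNAs had an unadjusted p under 0.05, miR-221 among them at 0.0359 and miR-222 at 0.153. Without the 0.1 nM array, whose overall signal was lowest, the slopes were -0.24 and -0.23, and the limma adjusted p of both was 0.0730. That line runs through 3 single arrays and leaves 1 residual degree of freedom, so its p is weak ground for either member. These p-values rest on how far single arrays lie from a line.

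For the 3 treated arrays together, miR-221 had a mean normalised log2 level of 8.35 ± 0.39 (SD, n = 3 doses), against 8.72 on the untreated array. The difference was -0.37 ± 0.39 (SE, limma adjusted p = 0.963). MiR-222 had 8.20 ± 0.72 (SD, n = 3 doses), against 8.35 untreated, a difference of -0.15 ± 0.67 (SE, limma adjusted p = 0.963). Limma called 0 of the 80, or 0%, and 0 had an unadjusted p under 0.05. The wide spread of miR-222 over the treated arrays is that between 9.01 at 0.1 nM and 7.63 at 10 nM. At 1 and 10 nM its signal was not above background. The SE and p-values of this fit measure the spread between doses and not between cultures.

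The authors' deposited table lists miR-221 at 333 untreated and at 211.5, 209 and 204 in order of dose, which equal the net signals above. The authors' deposited table gives miR-222 values of 234.25 for the 0.1 nM array and 231.75 for the untreated one, and leaves its cells for 1 and 10 nM blank. Filled cells of the authors' deposited table start at 0.502 times an array's median mismatch signal, and the net signal of miR-222 was 0.450 times it at 1 nM and 0.401 times at 10 nM. The blank cells fall on the doses at which miR-222 was not detected here. Both cut-offs act on the same signals, so this is not a second observation.

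The miRNA whose profile over the 4 arrays lay nearest to that of miR-221 was miR-23b. Likeness was the root mean square difference of normalised log2 levels, each centred on its own mean, among the 39 other human miRNAs detected on all 4 arrays. MiR-23b differed by 0.0259, miR-425-5p by 0.0656, miR-23a by 0.0897 and miR-26a by 0.133, where the median over all pairs was 0.266. MiR-23b had net signals of 667.75 untreated and 362.75, 492.25 and 454.25 at 0.1, 1 and 10 nM. Its log2 ratios were 0.06, -0.42 and -0.66, beside 0.05, -0.43 and -0.73 for miR-221. With 4 points that share arrays and scaling, such likeness is a description.

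MiR-222 was not the nearest to miR-221. From miR-221 it differed by 0.256, close to the median over all pairs, and the mouse miR-221 probe differed from the human one by 0.158. The nearest to miR-222 were miR-200c, a miRNA of epithelial cells, at 0.180, and miR-26a at 0.192, followed by miR-221 at 0.256 and miR-23b at 0.266. The profile of miR-222 rests on 2 arrays that did not detect it.

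**Figure D5:**
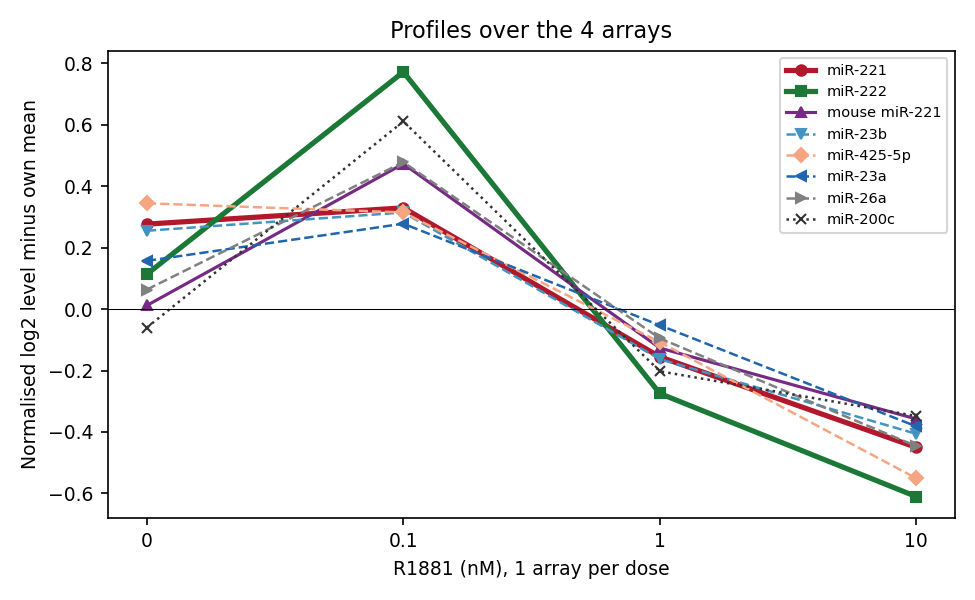
Normalised log2 level minus each probe's own mean over the 4 arrays, against R1881 dose in nM, 1 array per dose, for miR-221, miR-222, the mouse miR-221 probe and the miRNAs nearest to either member. MiR-221 and miR-23b run within 0.0259 (root mean square) of each other, and miR-222 has the highest value at 0.1 nM and the lowest at 10 nM.

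Of 16 miRNAs described as targeting p27, p57, p21 or p16, to which both members belong, 11 were detected on at least 1 array. At 10 nM the measured ratios of 2 of the 11 were past 1.5-fold lower, where 8.86% of the 79 miRNAs compared were. These were miR-221 and, on a signal not above background, miR-222. MiR-148a was higher, at a log2 ratio of 0.74, a size in that direction that 12.7% of the 79 reached. The list's median was 0.03, beside 0.00 for all 79 miRNAs compared. MiR-25, which is known to target p57 as well, stood at -0.22, and miR-106b, known to target p21, at -0.54. The brightest of the list, miR-106a, miR-17-5p, miR-20a and miR-20b, stood at 0.16, 0.17, 0.03 and 0.07. In all, 5 of the 11 had a measured ratio below 0, and 6 were above it. The remaining one below 0 was miR-92 at -0.36, like miR-222 on a signal not above background.

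At 1 nM, 0 of the 11 were past 1.5-fold in either direction, where 4.55% of the 66 compared were lower and 4.55% higher, and the median was 0.19, beside -0.04 for all 66 compared; with median centring it was -0.05. At 0.1 nM, 3 were higher, miR-106a at 0.77, miR-93 at 0.75 and miR-222 at 0.66, and 0 were lower. Of all 65 miRNAs compared, 10.8% were higher and 15.4% lower by as much. The median was 0.37, beside 0.04 for all 65. MiR-24, which is known to target p16, was detected on none of the 4 arrays.

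Of 16 miRNAs described as targeting cyclins and their kinases, 12 were detected. At 10 nM, 0 of the 12 were past 1.5-fold, against 8.86% lower and 12.7% higher among all 79, and the median was -0.03 (0.01 with median centring). At 1 nM miR-16, which targets cyclin D1, was higher, at 0.69, and 0 were lower, against 4.55% in each direction among all 66. At 0.1 nM let-7e was higher, at 0.83, and miR-15a and miR-34a were lower, at -0.84 and -0.64, both on signals not detected at that dose. Those 2 of 12 lower and 1 of 12 higher are near the shares over all 65 miRNAs, 15.4% and 10.8%. Of 12 miRNAs described as targeting the oestrogen or androgen receptor, 4 were detected on at least 1 array. At 10 nM 0 of those were past 1.5-fold, against 8.86% lower and 12.7% higher among all 79. At 1 nM 0 of the 3 compared were, against 4.55% in each direction. At 0.1 nM 1 of the 2 compared was lower, miR-34a as above, against 15.4% of all 65. These counts rest on very few members.

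The arrays detected 62 human miRNAs untreated and 47, 61 and 74 at 0.1, 1 and 10 nM. Of the 604 mismatch probes, 4, 3, 7 and 16 passed the same threshold in that order. Mismatch probes thus passed most often at 10 nM, which limits what the larger count there can mean. Of 10 epithelial markers 6 were detected, led by miR-200a, miR-200c and miR-200b, and miR-375, miR-205, miR-183 and miR-429 were not. Markers of stroma and endothelium, where miR-221 and miR-222 are also abundant, had summed net signals of 32.25 untreated and 129.5, 62.75 and 433 in order of dose. Of these 5 markers 1 was detected, miR-214 at 10 nM, where its own net signal was 377. The samples were cultures of the LNCaP line, and why this probe was higher at 10 nM was not tested. None of 5 blood, 3 muscle or 3 liver and neuron markers was detected.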

How the data were processed

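Per the labels, 10 µg of total RNA per dose was labelled with Cy3 and hybridised to 1 array. Each deposited file holds 1 mean signal per probe, a linear intensity that the authors averaged, per the file headers, for 1406 probes; image software and background step: not given in the sources used here. The deposited value table repeats this intensity less each array's median over 604 mismatch probes, and its column medians were 489, 377.75, 493 and 333.25; it was unscaled between arrays, and its stated direction relative to untreated was not seen. Mismatch probes at 0 (3 to 7 per array) were missing in the correction and threshold. Signals were corrected with normexp (offset 50, limma 3.58.1, R 4.3.3) and quantile normalised over the match probes of all species. A miRNA was compared when either array detected it, and fits used 80 miRNAs, two-sided, with Benjamini-Hochberg adjustment and 2 residual degrees of freedom. Only the line over dose was tested on simulated data, whose non-zero slopes were steeper than those of the pair. The fit of treated against untreated arrays was not. The members, lists and settings were chosen with earlier results of these data known. Named miRNAs were the members, their 4 nearest profiles and up to 4 of the brightest in each list; others, such as miR-93, miR-25, miR-106b, miR-24 and those past 1.5-fold, were chosen after their values were seen.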

Additional observations from a re-analysis of the deposited data

Results flagged for a closer look

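The mismatch probe of miR-222 stood above background on the 0.1 nM array, at a mean signal of 517.5 against a threshold of 506, and below it on the untreated array, at 512.5 against 519. The array at 0.1 nM detected 3 of 604 mismatch probes and the untreated array 4, so a detected mismatch probe was rare on both. The match probe of miR-222 had 589.25 at 0.1 nM and 603.25 untreated.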

How the results depend on the processing

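Of 105 alternative values, 76 kept their call or moved by less than the median difference between probes of one name (0.37, 0.25 and 0.32 log2 at 0.1, 1 and 10 nM), 13 moved further, 2 reversed, and 14 counts moved past 1.5 times. A ratio counted as reversed only where the one reported was 1.5-fold or more. Some of the 13 that moved further therefore changed sign as well. The limma fits among the 76 had no call to lose, so they say little about stability. The 76 also hold the ratios of miR-221 at 10 nM that lost the 1.5-fold call, -0.44 and -0.54. Ratios at 1 nM that gained it are among them too, -0.61 and -0.67 for miR-221 and -0.62 for miR-222. Where no cause is named, it was not tested. The log2 ratio of miR-222 at 0.1 nM, 0.66, reversed to -0.092 without normalisation and -0.71 with its own mismatch signal subtracted, and moved to 0.015 in the authors' value table. That of miR-221 at 0.1 nM, 0.05, moved to -0.57 without normalisation, -0.65 in the authors' value table, -1.56 with its own mismatch signal subtracted and 0.46 for the mouse probe. At 1 nM median centring gave -0.73 for miR-221 and -0.76 for miR-222, the mouse probe gave -0.14, and the own mismatch signal gave 0.0020 for miR-222. At 10 nM subtracting the median mismatch signal gave -1.08 and -1.26, the mouse probe -0.37, and no background correction -0.40 for miR-222. The count of miRNAs lower by 1.5-fold was 10, 3 and 7 at 0.1, 1 and 10 nM. A 2-fold threshold, which is stricter by construction, gave 5, 0 and 1, no background correction 6, 1 and 2, and the own mismatch signal 19, 7 and 20. No normalisation gave 28 at 0.1 nM, median centring 9 and 11 at 1 and 10 nM, and subtracting the median mismatch signal 5 and 16. Slopes ran from -0.39 to -0.07 for miR-221 and from -0.53 to -0.09 for miR-222 (the last of each per nM), with limma adjusted p of 0.0730 or more. The mouse probe was chosen after seeing the data. Values of miR-222 at 1 and 10 nM are measured ratios on signals not above background. In the authors' value table miR-222 has no value at 1 or 10 nM and could not be fitted, nor could it among miRNAs detected on all arrays. No paired analysis was possible because each dose has 1 array. Signals of the pair lay within 186 units of the threshold, which limits what the arrays can resolve.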
